A study of Oryza sativa with 2 samples.

Results

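The plasma membrane intrinsic proteins (PIPs) are the water channels of the plant cell surface, and 10 rice PIP genes were followed here among the 37896 locus rows of the expression tables. The members were taken by locus ID, with no cut on their expression. Earlier results of these data were known when they were chosen. They are 3 genes of the PIP1 group (PIP1-1, PIP1-2 and PIP1-3) and 7 of the PIP2 group (PIP2-1 to PIP2-7). All 10 IDs were listed in both tables. The libraries came from whole seedlings of the wild-type indica cultivar 93-11, 3 weeks old, grown hydroponically in Yoshida solution with 10 h of light and 14 h of darkness at 800 μmol of light per square metre per second. Poly(A) RNA of 2 samples of this 1 group was sequenced, called replicate 1 and replicate 2, with no treatment, mutant or other cultivar. Nothing in the labels tells whether the 2 samples are separate plants or pools, and their spread may in part be technical.

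Aquaporins form tetramers in which each subunit encloses its own pore. PIP1 and PIP2 proteins differ mainly in their end regions. In maize and frog oocyte experiments, PIP1 proteins reach the cell surface well only when they assemble with a PIP2 partner, while PIP2 proteins raise water permeability on their own. In rice, PIPs carry much of the cell-to-cell water flow in roots and leaves, and some also pass other small molecules such as hydrogen peroxide or arsenite.

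The deposited tables give locus IDs without gene names, so the pairing of IDs and names was set against the RefSeq gene table of a japonica assembly. All 10 PIP names occurred there once, and 10 of 10 lay on the chromosome that the locus ID carries. Where a chromosome held several members, RefSeq listed them in the same order as the locus numbers. Chromosomes 2, 4 and 7 carry 3 members each and chromosome 9 carries 1, PIP2-7. The names are written here with a hyphen, one of the forms RefSeq gives. RefSeq lists 11 PIP names in all, and the name outside the members is PIP2-8.

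Levels are given in FPKM, fragment counts divided by transcript length and library size, so they are per length and can be compared between genes. The tables summed to 741624 FPKM in replicate 1 and 668305 in replicate 2, with a median locus at 1.77 and 2.09 FPKM. The number of fragments is unknown, so no counting interval or detection floor can be given. With 1 group of 2 libraries there is no contrast to test, and the spread between the libraries is the error throughout. As a check on the whole-plant label, 7 leaf loci (small subunits of Rubisco, light-harvesting proteins and the photoprotection protein PsbS) and 9 root transporter loci, assigned from general knowledge, were read from the same tables. They are those listed of 8 leaf and 10 root loci, chosen with earlier results of these data known, so the check is not independent. All 7 leaf loci stood above 100 FPKM in both libraries, as did 3 of the 9 root loci, against 2.15% of all loci. At the lower threshold of 1 FPKM, 8 of the 9 root loci were detected in both libraries, against 53.1% of all loci. The remaining root locus, LOC_Os02g02170, stood at 0.789 and 0.531 FPKM.

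All 10 PIP genes were detected, with PIP2-7 far above the rest and the 2 isoforms known from roots among the lowest. At a threshold of 1 FPKM, 10 of 10 members were detected in both libraries, against 53.1% of all loci. Most levels were high, as 6 of 10 members stood at 100 FPKM or more in both libraries, against 2.15% of all loci. The members summed to 5133 FPKM in replicate 1 and 4802 FPKM in replicate 2 (4968 ± 234 FPKM, SD, n = 2). As a share of all FPKM in the tables, the sum was lower in replicate 1, 0.692% against 0.719% in replicate 2 (0.705% ± 0.0187). The highest member exceeded the lowest 316-fold in replicate 1 and 331-fold in replicate 2.

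**Figure D1:**
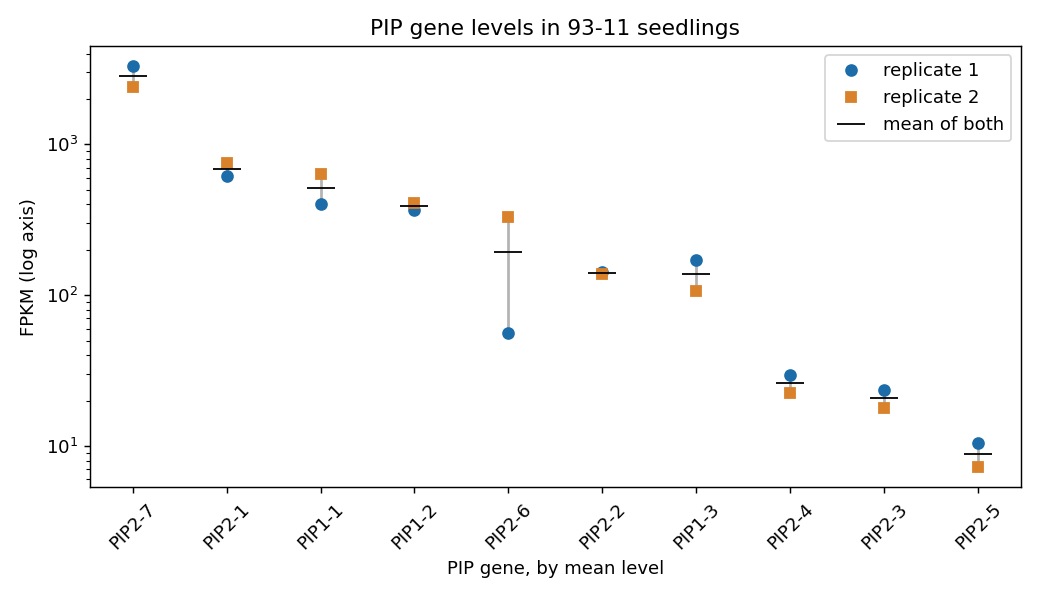
FPKM on a log axis for each of the 10 PIP genes, ordered by mean, where circles are replicate 1, squares replicate 2 and horizontal bars the mean. PIP2-7 stands above all other members in both libraries, and PIP2-6 has the widest gap between libraries, 56.1 against 327.6 FPKM.

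PIP2-7 (LOC_Os09g36930) has been described in leaf mesophyll and linked to water transport under chilling. It stood at 3308 FPKM in replicate 1 and 2387 FPKM in replicate 2 (2848 ± 651 FPKM, SD, n = 2). It was the locus of rank 19 in each library, counted over the whole table. It took 64.4% of the summed PIP FPKM in replicate 1 and 49.7% in replicate 2. Its level was 1.81 times that of the other 9 members together in replicate 1 and 0.989 times in replicate 2. The gap to the next member was wider than the spread between libraries, since the lower PIP2-7 value lay above the higher value of any other member.

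PIP2-1 (LOC_Os07g26690), also named PIP2a, is a water channel of both roots and leaves. It was the second member in each library, at 621.3 FPKM in replicate 1 and at 753.05 in replicate 2 (687.2 ± 93.2 FPKM, SD, n = 2). PIP2-7 exceeded it 5.32-fold in replicate 1 and 3.17-fold in replicate 2.

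PIP2-2 (LOC_Os02g41860) differed least between the libraries, at 142.99 FPKM in replicate 1 and at 138.9 in replicate 2 (140.9 ± 2.92 FPKM, SD, n = 2). PIP2-6 (LOC_Os04g16450), an isoform that passes arsenite in oocytes, differed most. It stood at 56.1 FPKM in replicate 1 and 327.6 FPKM in replicate 2 (191.9 ± 192 FPKM, SD, n = 2). Its SD equalled its mean, so its level in these seedlings is known only as the pair of values. Against PIP2-2, PIP2-6 was 0.393 times as high in replicate 1 and 2.36 times as high in replicate 2, a ratio within each library that no scaling of whole libraries can change.

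The PIP1 genes held 21.1% ± 3.93 of the summed PIP FPKM (SD, n = 2), 18.3% in replicate 1 and 23.9% in replicate 2. Their sum reached 941.3 FPKM in replicate 1, and 1148 in replicate 2. The PIP2 sum was 4192 and 3654 FPKM, so PIP2 exceeded PIP1 4.45-fold and 3.18-fold. PIP2-7 carried this excess, as the other 6 PIP2 genes together stood at 0.939 times the PIP1 sum in replicate 1 and 1.10 times in replicate 2. Without PIP2-7, a division made after the values were seen, the PIP1 genes held 51.6% and 47.5% of the remaining PIP FPKM.

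Within the PIP1 group the order was the same in both libraries. PIP1-1 (LOC_Os02g44630), known as RWC1 and studied in seed germination and salt stress, stood at 401.3 FPKM in replicate 1 and 631.4 FPKM in replicate 2 (516.3 ± 163 FPKM, SD, n = 2). PIP1-2 (LOC_Os04g47220) stood at 369.7 and 409.5 FPKM (389.6 ± 28.1 FPKM). Their ranges overlapped, and PIP1-1 was 1.09 times PIP1-2 in replicate 1 and 1.54 times in replicate 2. PIP1-3 (LOC_Os02g57720), known as RWC3 and linked to drought avoidance, stood at 170.3 and 106.99 FPKM (138.7 ± 44.8 FPKM). It was below the other PIP1 genes in both libraries, PIP1-2 being 2.17-fold and 3.83-fold higher. PIP genes are alike in sequence, and how fragments that match several of them were shared out is not stated in the available descriptions, so the split between close members is uncertain.

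**Figure D2:**
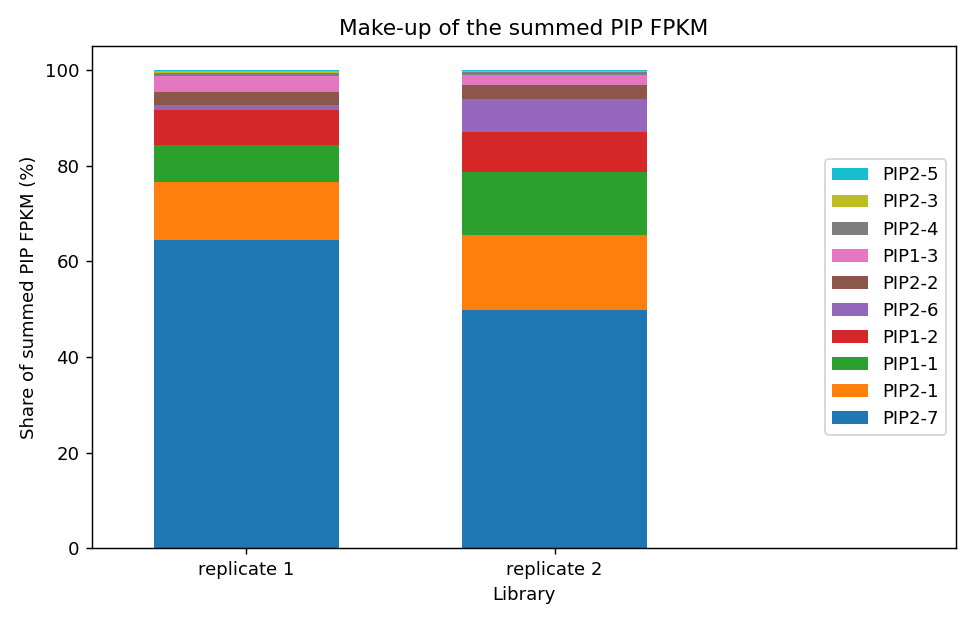
Share of the summed PIP FPKM (%) taken by each member in each library, stacked to 100% from the highest mean at the bottom. PIP2-7 takes 64.4% in replicate 1 and 49.7% in replicate 2, and PIP2-6 goes from 1.09% to 6.82%.

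The lowest members were PIP2-4, PIP2-3 and PIP2-5, which together made 1.11% ± 0.181 of the PIP sum (SD, n = 2). PIP2-4 (LOC_Os07g26630), another isoform that passes arsenite in oocytes, stood at 29.7 FPKM in replicate 1 and 22.3 FPKM in replicate 2 (26.03 ± 5.20 FPKM). PIP2-3 (LOC_Os04g44060), known as a root isoform, stood at 23.6 and 17.8 FPKM (20.7 ± 4.06 FPKM). PIP2-5 (LOC_Os07g26660), a root isoform reported around the endodermis, was the lowest member in both libraries, at 10.5 and 7.20 FPKM (8.84 ± 2.32 FPKM). All 3 were higher in replicate 1 as deposited, each by 1.32-fold to 1.46-fold. So were 60.7% of all loci averaging at least 10 FPKM. With both libraries scaled to the same total, the 3 were higher by 1.18-fold to 1.28-fold.

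The root isoforms PIP2-3 and PIP2-5 summed to 34.1 FPKM in replicate 1 and 25.04 FPKM in replicate 2, or 0.593% ± 0.101 of the PIP sum (SD, n = 2). In RNA of whole plants, fewer root cells and less of an RNA per root cell cannot be told apart. Beside this, the 9 loci listed as root transporters summed to 1137 FPKM in replicate 1 and 847.4 FPKM in replicate 2, of which LOC_Os02g51110 and LOC_Os03g01700 made 68.4% and 63.4%. How far these loci are confined to roots in 93-11 was not tested. Their levels ran from a mean of 0.660 to 448.9 FPKM, with a median of 48.5 and 47.4 FPKM in the libraries, and none was listed at 0. The root isoform sum was 3.00% of the root list sum in replicate 1 and 2.96% in replicate 2. The 7 leaf loci summed to 34180 and 23348 FPKM. Both lists and both root isoforms were thus higher in replicate 1 as deposited, as were 60.7% of all loci averaging at least 10 FPKM. After scaling to the same total, all 7 leaf loci and 7 of the 9 root loci were higher in replicate 1. The share of all loci averaging at least 10 FPKM was then 43.5%. The median log2 ratio, replicate 1 over replicate 2, was 0.51 for the leaf list and 0.09 for the root list. The part of organ make-up in the isoform levels was not tested.

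Ordered by mean level, the members ran PIP2-7, PIP2-1, PIP1-1, PIP1-2, PIP2-6, PIP2-2, PIP1-3, PIP2-4, PIP2-3 and PIP2-5. Replicate 2 alone gave this order for 10 of 10 members. Replicate 1 alone gave it for 8, with PIP1-3 and PIP2-6 exchanging places 5 and 7. Of the 9 pairs of neighbours in the order, 5 had ranges over the 2 libraries that overlapped. These were PIP2-1 with PIP1-1, PIP1-1 with PIP1-2, PIP2-6 with PIP2-2, PIP2-2 with PIP1-3, and PIP2-4 with PIP2-3. Compared within each library, 3 of these 5 pairs nevertheless kept their direction in both. PIP2-1 was 1.55 and 1.19 times PIP1-1 in replicates 1 and 2, PIP1-1 was 1.09 and 1.54 times PIP1-2, and PIP2-4 was 1.26 and 1.25 times PIP2-3. The pairs that turned round were PIP2-6 with PIP2-2 and PIP2-2 with PIP1-3. The other 4 pairs had ranges that did not overlap. PIP1-3 exceeded PIP2-4 5.73-fold in replicate 1 and 4.79-fold in replicate 2, and PIP2-3 exceeded PIP2-5 2.25-fold and 2.48-fold. PIP1-2 exceeded PIP2-6 6.58-fold in replicate 1 but only 1.25-fold in replicate 2, so the size of that step depends on the library. The fourth such pair was PIP2-7 with PIP2-1, described above. PIP2-6 also stood above PIP2-4, the highest of the 3 low members, by 1.89-fold in replicate 1 and 14.7-fold in replicate 2. After scaling to the same total, the ranges of PIP2-4 and PIP2-3 no longer overlapped, which left 4 overlapping pairs.

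**Figure D3:**
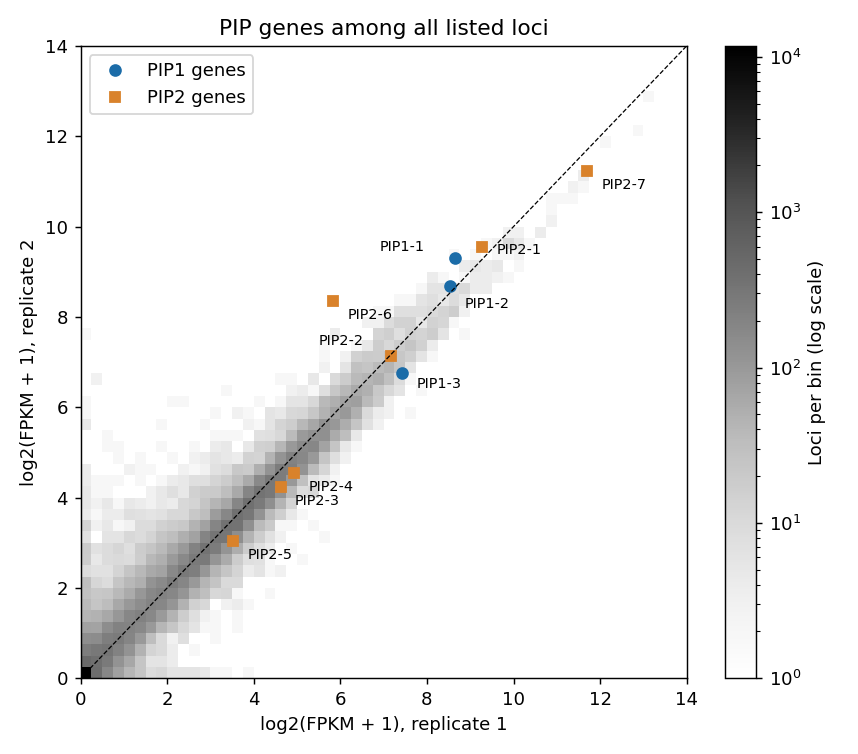
Level of every locus row in replicate 1 and replicate 2 on the log2(FPKM + 1) scale, as deposited, with grey marks the number of loci per bin, circles the PIP1 genes and squares the PIP2 genes, and the dashed line equal values. PIP2-6 lies well above the line, at 56.1 and 327.6 FPKM, and the other 9 members lie near it.

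Of the PIP genes, PIP2-6 alone differed more than 2-fold between the libraries. Differences were taken on the log2(FPKM + 1) scale, with both libraries scaled to an equal sum. Only loci averaging at least 10 FPKM were tested, a filter that 9 of 10 members passed and PIP2-5 did not. By this rule 1 of 9 members was apart, against 6.52% of all 10366 loci tested. It was higher in replicate 2, as were 5.24% of the loci tested, while 0 of 9 members and 1.28% of the loci tested were higher in replicate 1. One gene in 9 is too few to read against that share. The log2 ratio of PIP2-6, replicate 1 over replicate 2, was -2.67, a 6.38-fold difference after scaling and 5.84-fold as deposited. A difference over 4-fold was found at 1.96% of the loci tested and, in favour of replicate 2, at 1.75%, and 1.17% had a larger ratio in either direction than PIP2-6. With 1 library on each side this difference has no replicate check and no test.

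The other 9 members, PIP2-5 included, differed 1.08-fold to 1.74-fold after scaling. PIP1-1 had the largest ratio of these, with a log2 ratio of -0.80, and 9.47% of the loci tested had a larger one. The directions were mixed, 5 members being higher in replicate 1 and 5 in replicate 2 after scaling, against 43.5% of the loci tested higher in replicate 1. As deposited, 6 of 10 members were higher in replicate 1, against 60.7% of the loci tested, and PIP2-2 was the gene that changed sides. The median log2 ratio of the members was 0.07 after scaling, beside -0.05 over all loci tested, and 0.21 as deposited, beside 0.09. PIP1-1, PIP1-2, PIP2-1 and PIP2-6 were higher in replicate 2 under each of the 4 scalings, as deposited included. PIP1-3, PIP2-3, PIP2-4, PIP2-5 and PIP2-7 were higher in replicate 1 under each. The scalings shifted the log2 ratios of all loci almost alike, by -0.15 to -0.03. These directions thus followed from the deposited ratios and are not repeated support.

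**Figure D4:**
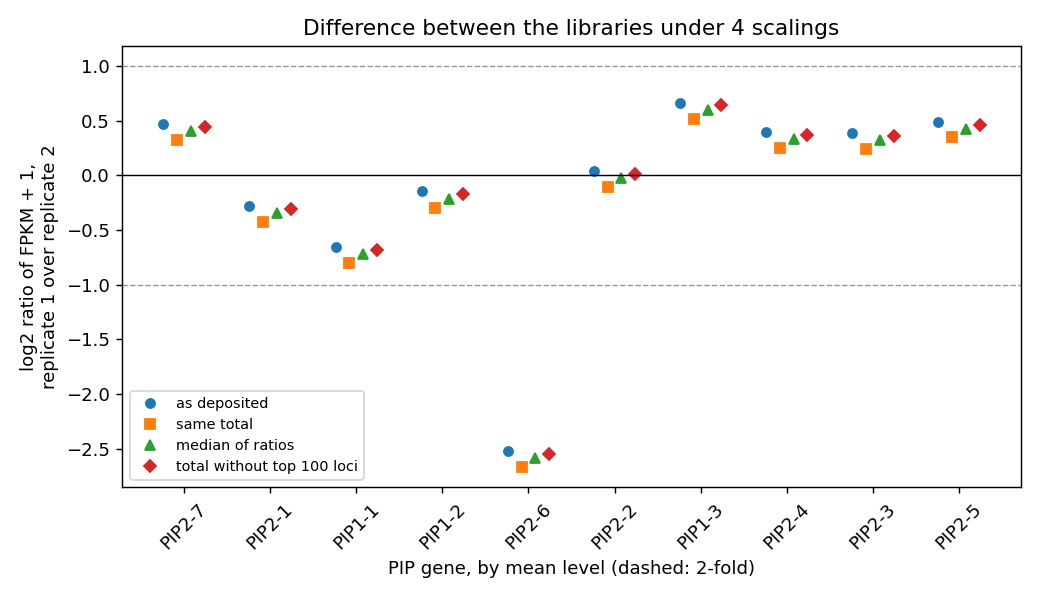
log2 ratio of FPKM + 1, replicate 1 over replicate 2, for each PIP gene as deposited and under 3 scalings of the libraries, where dashed lines mark 2-fold. PIP2-6 lies below the lower dashed line under all 4, at -2.67 after scaling to the same total, and only PIP2-2 changes sign.

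PIP2-4, PIP2-5 and PIP2-1 lie close together on chromosome 7 in the order of locus numbers. RefSeq places 1 gene between PIP2-4 and PIP2-5 and none between PIP2-5 and PIP2-1. PIP2-1 exceeded PIP2-5 59.3-fold in replicate 1 and 104.6-fold in replicate 2, and exceeded PIP2-4 20.9-fold and 33.7-fold. The expression tables list LOC_Os07g26640 and LOC_Os07g26650 between PIP2-4 and PIP2-5. LOC_Os07g26640 stood at 6.95 and 5.01 FPKM, and LOC_Os07g26650 was listed at 0 in both libraries. LOC_Os07g26670, listed between PIP2-5 and PIP2-1, was also at 0 in both. PIP2-4 was 2.83 times PIP2-5 in replicate 1 and 3.10 times in replicate 2, a closer ratio between libraries than either kept with PIP2-1. This was not particular to neighbours, as PIP2-3 on chromosome 4 kept similarly close ratios with both. PIP2-4 was 1.26 and 1.25 times PIP2-3, and PIP2-3 was 2.25 and 2.48 times PIP2-5.

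**Figure D5:**
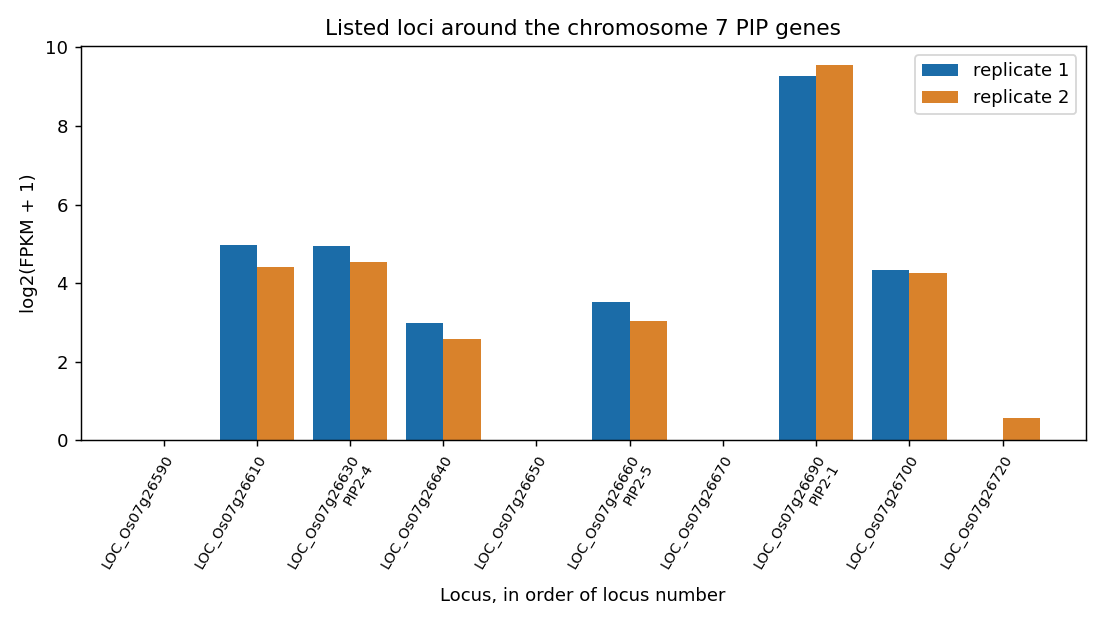
log2(FPKM + 1) of the listed loci around the chromosome 7 PIP genes, in order of locus number, with a bar for each library. PIP2-1 stands at 621.3 and 753.05 FPKM, while PIP2-4, PIP2-5 and the unnamed loci beside them lie at 30.1 FPKM or lower.

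By mean level, most members stood above the listed loci nearest to them in locus number. The rows up to 2 places before and after each member in locus number held 35 further loci, of which 21 were detected in both libraries and 8 were listed at 0 in both. Their median mean level was 3.76 FPKM, against 166.4 FPKM for the 10 members. Leaving other PIP genes aside, 9 of 10 members stood above all of these neighbours by mean level. The exception was PIP2-6, which had 3 neighbours listed at 0 and 1, LOC_Os04g16680, at 430.3 FPKM in replicate 1 and 265.7 FPKM in replicate 2. That locus was higher in replicate 1, the opposite direction to PIP2-6. PIP2-4 was only 1.03 times its neighbour LOC_Os07g26610, which stood at 30.1 and 20.3 FPKM. With PIP genes counted as neighbours, 8 of 10 members stood above all of theirs. The share of all loci that stand above their neighbours was not counted, so neither count can be read against it.

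Beyond the members, the tonoplast intrinsic proteins (TIPs), the water channels of the vacuole membrane, summed to less than the PIP genes in both libraries. A list of 10 TIP loci was assigned from general knowledge, since the tables do not pair them with names. Of these, 8 were detected in both libraries, and together they reached 3609 FPKM in replicate 1 and 4389 in replicate 2 (3999 ± 551 FPKM, SD, n = 2). The PIP sum was 1.42 times the TIP sum in replicate 1 and 1.09 times in replicate 2. This order rested on PIP2-7, since the other members summed to 1826 and 2415 FPKM, below the TIP sum in both libraries. The highest locus of that list, LOC_Os03g05290, had a mean of 1908 ± 573 FPKM, below PIP2-7 in each library. None of its 6 loci averaging at least 10 FPKM differed over 2-fold after scaling, against 6.52% of all loci tested. Of the 10, 7 were higher in replicate 2 after scaling, 2 in replicate 1, and 1 was listed at 0 in both. Among all loci tested, 5855 of 10366 were higher in replicate 2. The list is too short to read against these shares. LOC_Os03g64330, taken from general knowledge as PIP2-8 and likewise not paired with a name in the tables, stood at 6.33 and 10.8 FPKM, a range that overlaps that of PIP2-5.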

How the data were processed

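Poly(A) RNA of 2 whole-seedling samples of rice 93-11 was sequenced. Each library has its own table of locus IDs and FPKM values, made by the authors, per the file headers. The submitters' processing notes name TopHat2 and Cufflinks with no version. Genome build, annotation, filters and the treatment of multiply matching fragments: not given in the sources used here. Locus IDs of the LOC_Os form are those of the MSU gene models of japonica rice. Levels were thus most likely read on japonica gene models, and divergent 93-11 copies would then be underestimated. How far this shifts the comparisons between PIP genes was not tested.

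FPKM values were used as deposited for levels and shares, as mean ± SD over 2 libraries. Ratios between libraries used log2(FPKM + 1) after scaling to the same total, which understates folds of low genes. A locus was apart above 2-fold at a mean of at least 10 FPKM. The calculation was tried on simulated data whose changes were larger than this limit. That check does not cover differences near 2-fold. Its simulated libraries differed less from each other than the 2 real ones, so it does not give the rate of false calls here. All 10 members are named. The members and lists were chosen with earlier results of these data known. RefSeq names came from ASM3414082v1 (39387 genes), whose build may differ, so no coordinates are given. Sequences and protein likeness were not analysed here. Tools were matplotlib 3.10.9, scipy 1.17.1, pandas 2.3.3 and numpy 2.4.6 under Python 3.11.15. Alternatives were other scalings, pseudocounts, thresholds, fold limits and single libraries.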

Additional observations from a re-analysis of the deposited data

How the results depend on the processing

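No paired analysis was possible because both samples belong to a single group. All 10 members stayed detected at 0.1 and 5 FPKM, and 9 at 10 FPKM. PIP2-6 was the member apart under each scaling, pseudocount, level minimum and fold limit tried, alone except at 1.5-fold, where 2 members were apart, PIP1-1 and PIP2-6. The median log2 ratio of the members was 0.07 after scaling to the same total, 0.21 without scaling, 0.19 with a total that leaves out the 100 most abundant loci and 0.15 with the median of ratios. These scalings shifted all loci by -0.15, -0.03 and -0.07 for the total, the trimmed total and the median of ratios. Shifts of this size could not change the call of PIP2-6, whose log2 ratio was -2.52 as deposited. Leaving PIP2-7 out of the sum, chosen after seeing the data, raised the PIP1 share from 21.1% to 49.5% and the share of PIP2-3 with PIP2-5 from 0.593% to 1.45%, since a smaller sum divides the same values. In 1 library alone the PIP sum was 4802 to 5133 FPKM, the PIP1 share 18.3% to 23.9%, the PIP2-3 and PIP2-5 share 0.521% to 0.664%, and 8 to 10 members kept their place in the order. Adding LOC_Os03g64330 moved the PIP1 share by less than its SD. Fragment counts are unknown, so the counting error of each level is too.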
